A study of Caenorhabditis elegans with 30 samples.

Results

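The Sra and Srg superfamilies are groups of chemoreceptor genes of Caenorhabditis elegans. They comprise 10 gene families, of which sra, srab, srb and sre form the Sra superfamily and srg, srt, sru, srv, srx and srxa form the Srg superfamily. The table of 46911 worm genes held 433 genes of these families, and 50 of them had a mean of at least 1 CPM over 30 libraries, the CPM being the count of a gene divided by the total worm-gene count of its library and scaled to a fixed library size. Those 50 genes are the members described here, 20 of them Sra and 30 Srg genes. The mean level chose them, and they are described over 5 times of starvation in 2 strains.

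The libraries were made from polyadenylated RNA of whole larvae that hatched in S-basal without food at 20 °C and arrested at the first larval stage (L1). The mutant strain, LRB444, carries irld-39(duk1) and irld-52(duk17) together and is called irld here, and the other strain is the wild type N2. Both strains were starved throughout and sampled at 6, 12, 24, 48 and 72 h of L1 arrest (after bleaching: 18, 24, 36, 60 and 84 h). There were 10 groups, each of 3 biological replicates. Libraries held 7563687 to 19815884 counts on worm genes. The counts do not tell the strains apart at the mutated genes, since irld-39 had 30 counts over the 15 irld libraries against 38 over the 15 N2 libraries, and irld-52 had 59 in irld against 82 in N2. Markers of neurons (20 of 20 listed genes), muscle (16 of 16) and intestine (13 of 16) were high enough to be tested in these whole larvae.

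Chemoreceptors of these families are predicted G protein-coupled receptors. Most that have been placed in the worm are made in few chemosensory neurons, where they sit in sensory cilia and signal through G proteins to cyclic-nucleotide-gated or TRPV channels. Known ligands include ascaroside pheromones and odorants, and some receptor genes are known to change expression with feeding state and pheromone. In RNA from whole larvae, fewer cells of a type and less RNA per cell cannot be told apart.

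The members were spread over all 10 families. The sre family gave 11 of 54 genes, srx gave 9 (8.91% of its genes), srv gave 7 of 30, sru gave 5 of 39, and sra (4 of 35), srab (4 of 23), srg (4 of 61) and srt (4 of 61) gave 4 each. The srb family gave 1 of 12 genes, srb-16, and the srxa family gave 1 of 17, srxa-6. The family with the largest share of members was srv (23.3%), and that with the smallest was srxa (5.88%). Chromosome V held 21 members of its 229 family genes, II held 12 of 91, IV held 7 of 68, X held 4 of 12, and I and III held 3 each of 15 and 18. All 50 members were annotated as protein coding, and all 50 passed the filter on low counts. Of the other family genes, 54 were tested and 125 averaged under 0.1 CPM.

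Members were low genes. Their mean ranged from 1.01 to 12.7 CPM with a median of 1.80 CPM, the median member had 17 counts in a library, and the 50 genes together took 0.0114% to 0.0172% of the counts of a library. The members nearest the threshold were sre-27 (1.02 CPM), srt-53 (1.02 CPM) and srg-40 (1.01 CPM), and the family genes just under it were srx-47 (0.987 CPM), srab-18 (0.966 CPM) and srt-22 (0.954 CPM). Per kilobase of exon, the highest mean levels were those of srv-4 (12.7 CPM per kb), srv-1 (9.40 CPM per kb), sre-23 (5.80 CPM per kb), srx-45 (5.49 CPM per kb) and srab-4 (4.99 CPM per kb). The lowest was that of srx-129, at 0.774 CPM per kb. Of 14 listed family genes with a role known from the literature, only sra-6, which is expressed in the ASH, ASI and PVQ neurons, and sre-1, whose promoter marks the ADL neurons, were members.

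Several receptors accumulated during starvation and a few declined, in both strains. At 72 h against 6 h, 16 members were called in irld (14 higher, 2 lower) and 19 in N2 (16 higher, 3 lower), where a call is an adjusted p under 0.05 in edgeR's quasi-likelihood test over 15508 genes. Of all tested genes, 46.6% were called in irld and 51.1% in N2 in the same comparisons, against 32% and 38% of members, so being called was not more frequent among members than in the genome as a whole. Called higher were 20.6% of all tested genes in irld and 23.1% in N2, against 14 and 16 of the 50 members. Called lower were 26% of all tested genes in irld and 27.9% in N2, against 2 and 3 members. The median log2 difference of the members was 0.52 in irld and 0.55 in N2, beside -0.13 and -0.11 over all tested genes. In irld, all 72 h libraries lay above all 6 h libraries for 16 members and below for 3, beside 23.1% and 28.9% of tested genes. In N2 this held for 18 and 3 members, beside 27.1% and 34.5%. The largest rises and falls named below were picked from called members without such overlap, so their separation is no further support.

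These counts depend on how libraries are scaled to one another. With library size alone, the calls at 72 h were 10 higher and 5 lower in irld and 9 higher and 3 lower in N2, and the member median was 0.08 in irld and 0.03 in N2 where the median of all tested genes was -0.59 and -0.63. With scaling to the ERCC spike-in, which was added in proportion to total RNA, 2 members were called higher and 3 lower in irld, and 3 higher and 1 lower in N2. The member median under that scaling turned to -1.14 in irld and was 0.24 in N2, beside medians of -1.58 and -0.57 over all tested genes. Spike-in counts varied within groups. For replicates 1, 2 and 3 in irld they were 34603, 168461 and 239956 at 6 h, and 56606, 395572 and 314014 at 72 h. In N2 they were 67861, 391190 and 119310 at 6 h, and 40471, 315963 and 220390 at 72 h. Replicate 1 was the lowest in each of these groups. The calls at 72 h lost with library size alone were those of sre-23 (0.66), sre-43 (0.83), sru-38 (0.74) and srx-38 (0.54) in irld, and of srab-12 (0.42), sre-23 (0.48), sre-6 (0.92), srt-41 (1.35), sru-38 (0.61), srx-114 (1.08) and srxa-6 (0.80) in N2. Among members called at 72 h in irld, srab-4 (-0.79), sre-23 (-0.79), sre-43 (-0.36), sru-38 (-0.08) and srx-38 (-0.58) took the opposite sign under the spike-in, none of them past the threshold. Values below are scaled by edgeR's trimmed mean of M-values (TMM), under which the typical tested gene moved little, and they are given as TMM-scaled CPM.

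Calls built up with time. At 12 h against 6 h, 1 member (sru-1, higher) was called in irld and 0 in N2, where limma-voom and DESeq2 also called 0. In N2 at 12 h, 5 members and 20.6% of all tested genes had an unadjusted p under 0.05. Of all tested genes, 4.34% were called at 12 h in irld (1.92% higher and 2.42% lower) and 6.21% in N2. At 24 h, 11 members were called higher and 1 lower in irld, and 9 higher and 2 lower in N2, with 30.6% and 34.2% of all tested genes called (14.1% higher and 16.5% lower in irld, 15.9% higher and 18.3% lower in N2). Library size alone gave 9 higher and 4 lower in irld and 5 of each in N2 at 24 h. At 48 h, 12 members were called higher and 2 lower in irld, and 16 higher and 3 lower in N2, with 42% and 45.6% of all tested genes called (18.1% higher and 23.9% lower in irld, 20% higher and 25.6% lower in N2). Library size alone gave 7 higher and 3 lower in irld and 8 higher and 5 lower in N2 at 48 h, and the spike-in gave 1 higher and 6 lower in irld and 2 of each in N2. Over all times together (4 degrees of freedom), 17 members were called in irld and 20 in N2. Of all tested genes, 43.1% were called over all times in irld and 49.6% in N2. Single libraries moved some of these counts. In irld, the count at 12 h was 2 without replicate 1 at 6 h and 0 without replicate 1 at 12 h, the count at 24 h was 7 without replicate 1 at 24 h, and that over all times was 11 without replicate 3 at 6 h. In N2, the count at 12 h was 1 without replicate 3 at 6 h. The N2 count at 24 h was 6 or 4 without replicate 1 or 2 at 6 h, and 6 or 5 without replicate 1 or 3 at 24 h. Without N2 replicate 1 at 72 h, 6 members lost their N2 call at 72 h (srab-12, sre-23, sre-6, sru-38, srx-114 and srxa-6). That library had the lowest TMM factor (0.781). The group mean was highest at 72 h for 24 members in irld and 21 in N2, and lowest at 6 h for 20 members in irld and 22 in N2.

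The receptors that led at 24 h were mostly those that led at 72 h. Both comparisons used the same 6 h libraries, so the rankings are not independent. In irld, the largest rises at 24 h with no overlap between libraries were those of srx-130 (3.65 ± 0.61), sre-12 (3.13 ± 0.87), srt-41 (2.66 ± 0.76), srv-4 (2.37 ± 0.66) and srx-128 (2.14 ± 0.75). In N2 they were those of srx-130 (4.45 ± 0.67), sre-12 (3.80 ± 0.99), srt-62 (2.59 ± 0.45), srv-4 (2.11 ± 0.65) and sru-38 (1.51 ± 0.35), on the log2 scale with SE. Not all of these calls held without each library. In irld, srt-41 missed the threshold without replicate 2 at 6 h (2.28, adjusted p = 0.0525) or replicate 3 at 24 h (1.75, adjusted p = 0.116), and srx-128 without replicate 2 or 3 at 6 h (2.07 and 1.54) or replicate 1 or 3 at 24 h (1.91 and 2.16), with adjusted p of 0.0534 to 0.134, and with the groups compared alone (2.18, adjusted p = 0.107). In N2, srv-4 missed it without replicate 2 or 3 at 6 h (1.84 and 1.87) or replicate 1 at 24 h (1.51), with adjusted p of 0.0554 to 0.109, and sre-12 without replicate 1 at 24 h (2.89, adjusted p = 0.0501). sru-40 was lower at 24 h in N2 by -0.77 ± 0.30 (adjusted p = 0.0483), a call that any of 5 libraries ended when left out, the value nearest 0 being -0.59 without replicate 1 at 6 h (adjusted p = 0.187). It was also lost with DESeq2 (-0.73, adjusted p = 0.0688), DESeq2's size factors (-0.73, adjusted p = 0.0586), upper quartile scaling (-0.65, adjusted p = 0.0986), no filter on low counts (-0.80, adjusted p = 0.0756), the groups compared alone (-0.77, adjusted p = 0.0571) and the spike-in (-2.20, adjusted p = 0.0854).

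**Figure D1:**
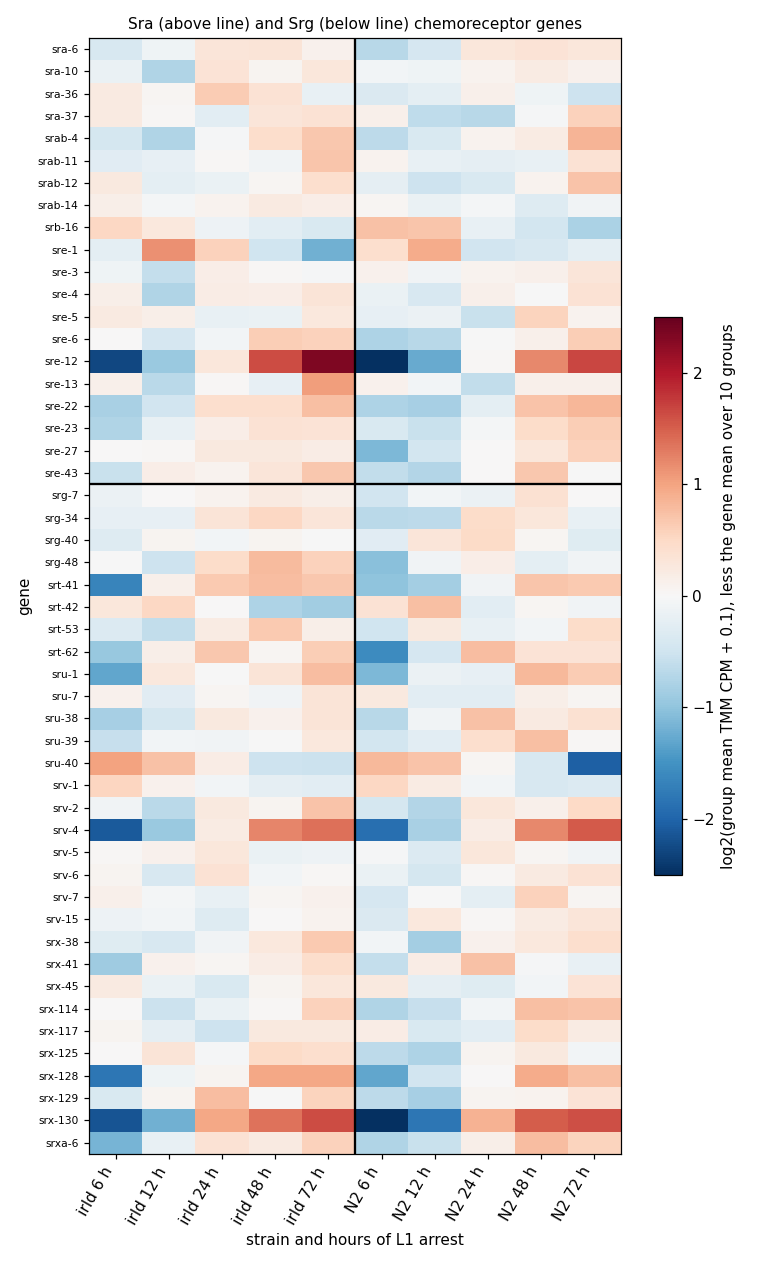
Rows are the 50 members, grouped by superfamily and family, and columns are the 5 times in irld (left) and N2 (right). Colour is log2 of the group mean of TMM-scaled CPM plus 0.1, less the mean of the gene over the 10 groups, with colours ending at 2.5 in either direction. The strongest rows run from blue at 6 h to red at 72 h in both strains (sre-12, srx-130, srv-4), and sru-40 runs the other way.

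The same receptors led in both strains. Calls at 72 h were shared by 14 members, which is 87.5% of the irld calls and 73.7% of the N2 calls, and all 14 had the same direction in both strains. The 12 shared rises were srab-4, sre-12, sre-22, sre-23, srt-41, srt-62, sru-1, sru-38, srv-4, srx-128, srx-130 and srxa-6, and the 2 shared falls were sru-40 and srv-1. The strains share no library, and over the 50 members the log2 differences of irld and N2 had Pearson's r of 0.91 and the same sign for 46 members. These are values across genes, which are not independent replicates. In each strain 41 members had a positive difference, which alone makes many signs alike. The share of calls common to both strains and r over all tested genes are not given here. Whether the agreement is particular to the members was not tested. By superfamily, 5 Sra members rose and 0 fell in irld, against 7 and 1 in N2, while 9 Srg members rose and 2 fell in irld, against 9 and 2 in N2.

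**Figure D2:**
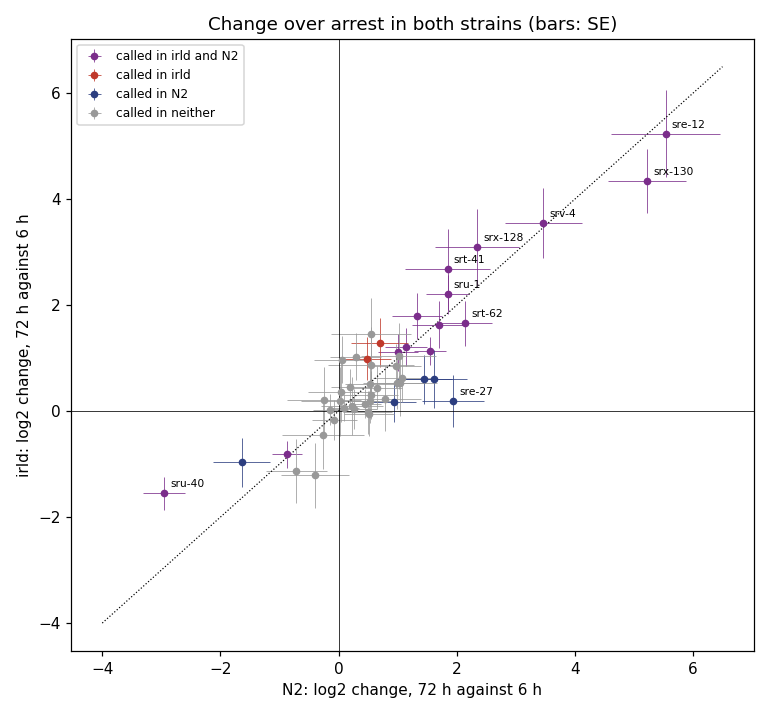
Each point is 1 of the 50 members, with its log2 difference at 72 h against 6 h in irld on the vertical axis and in N2 on the horizontal axis. Bars are SE, the dotted line marks equal values, and colours show in which strain the member was called. The 14 members called in both strains lie in the upper right and lower left, near the line.

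Among the members, the largest rise at 72 h was that of sre-12, a Sra gene that was almost undetected in early arrest. It lies on the minus strand (WBGene00020333, V 6977670 to 6979119 in WBcel235). In irld, sre-12 had 5.84, 7.07 and 5.62 CPM at 72 h, against 0.0826, 0.385 and 0 CPM at 6 h. In N2, it had 3.65, 5.23 and 2.70 CPM at 72 h, against 0.170, 0 and 0.103 CPM at 6 h. Every 72 h library stood far above every 6 h library in both strains. The means over 6, 12, 24, 48 and 72 h climbed through 0.156, 0.549, 1.41, 3.76 and 6.17 CPM in irld and through 0.0907, 0.417, 1.16, 2.74 and 3.86 CPM in N2. The fitted log2 difference at 72 h was 5.24 ± 0.82 in irld (SE, adjusted p = 1.15e-05) and 5.54 ± 0.92 in N2 (adjusted p = 1.89e-05). Behind it stood 151 counts at 72 h against 6 at 6 h in irld, and 92 against 3 in N2. The scaled count ratio in N2 was 57.2 with a 95% interval of 18.96 to 282 from counting error, so the size of the fold is loosely known.

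Of the 11 sre members, sre-12 among them, 4 were called higher at 72 h in irld and 5 in N2, and 0 lower in either strain. sre-22 had 3.63, 4.43 and 1.67 CPM at 72 h in irld, against 1.24, 1.00 and 0.883 CPM at 6 h, and 3.93, 2.80 and 3.64 CPM at 72 h in N2, against 1.61, 0.783 and 0.821 CPM at 6 h. All 72 h values lay above all 6 h values in each strain (log2 1.63 ± 0.45, adjusted p = 0.00428 in irld, and 1.69 ± 0.45, adjusted p = 0.00280 in N2). sre-23, the most abundant sre member, averaged 8.85 ± 2.48 CPM at 72 h in irld, against 4.11 ± 1.45 CPM at 6 h, and 10.7 ± 1.94 CPM at 72 h in N2, against 5.30 ± 0.79 CPM at 6 h (SD, n = 3). The sre-23 differences of 1.11 in irld and 1.00 in N2 rest on few libraries: the irld call ended without replicate 3 at 6 h (0.87, adjusted p = 0.0606) or replicate 2 at 72 h (0.93, adjusted p = 0.0601), and the N2 call without replicate 1 at 72 h (0.85, adjusted p = 0.0720). sre-23 shares 12 exon bases with nol-16 on the opposite strand, which changed by 0.10 and 0.12, and whether the counting used strand is not stated.

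Some sre members were called in 1 strain only. sre-27 rose in N2 (1.94 ± 0.52, adjusted p = 0.00327) and was called in neither direction in irld (0.19 ± 0.49), and sre-6 was called in N2 (1.45 ± 0.48, adjusted p = 0.0136) with 0.60 ± 0.46 in irld. sre-6 lost its N2 call without replicate 1 at 72 h (1.22, adjusted p = 0.0645). It shares 89 exon bases with F28H7.8 on the opposite strand, which changed by -1.9 in irld and -2.3 in N2. sre-43 was called in irld (1.29 ± 0.46, adjusted p = 0.0252) with 0.70 ± 0.48 in N2, and lost that call without replicate 3 at 6 h (1.05, adjusted p = 0.115) or replicate 2 at 72 h (1.03, adjusted p = 0.120). The differences between strains in these changes were tested and none was called, as described below.

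sre-1 followed another course, with its highest mean at 12 h in both strains. Over 6, 12, 24, 48 and 72 h it averaged 0.738, 2.09, 1.37, 0.602 and 0.329 CPM in irld and 1.22, 1.79, 0.611, 0.647 and 0.738 CPM in N2. It was called over all times in irld (adjusted p = 0.00209) and in N2 (adjusted p = 0.0455), although no single time differed from 6 h past the threshold in either strain (adjusted p = 0.0810 at 12 h in irld and 0.573 in N2).

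Among the other Sra families, srab-4 rose in both strains by 72 h. It had 6.62, 10.3 and 8.48 CPM at 72 h in irld, against 5.45, 3.46 and 2.72 CPM at 6 h, and 10.8, 8.99 and 8.80 CPM at 72 h in N2, against 3.98, 2.31 and 3.59 CPM at 6 h. The groups did not overlap in either strain (1.13 ± 0.26, adjusted p = 0.000988 in irld, and 1.55 ± 0.27, adjusted p = 3.05e-05 in N2). srab-12 was called in N2 (0.94 ± 0.37, adjusted p = 0.0374), a call that ended without any of 4 single libraries (replicates 1 and 3 at 6 h, 1.00 and 0.83, and replicates 1 and 2 at 72 h, 0.78 and 0.99, with adjusted p of 0.0580 to 0.132) and without the filter on low counts (0.88, adjusted p = 0.1103), and it stood at 0.17 ± 0.37 in irld. srb-16 fell in N2 to 1.26, 0.486 and 0.704 CPM at 72 h, against 2.63, 2.87 and 2.05 CPM at 6 h (-1.64 ± 0.49, adjusted p = 0.00655). In irld, srb-16 had 1.30, 0.599 and 1.43 CPM at 72 h, against 2.31, 1.85 and 2.38 CPM at 6 h, groups that do not overlap, with an adjusted p of 0.0928.

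None of the 4 sra members was called at 72 h in either strain. sra-6 averaged 10.5 ± 1.61 CPM at 72 h in irld, against 7.30 ± 3.71 CPM at 6 h, and 11.9 ± 8.78 CPM at 72 h in N2, against 5.97 ± 0.45 CPM at 6 h (SD, n = 3). The N2 mean at 72 h came from 22.01, 7.78 and 5.98 CPM, of which 1 library is far above the others. sra-37 fell in N2 at 24 h, to 2.86, 3.47 and 2.53 CPM, against 5.17, 6.40 and 4.31 CPM at 6 h (-0.84 ± 0.28, adjusted p = 0.0226), and stood at 7.27 ± 1.46 CPM by 72 h (SD, n = 3). That call was lost without replicate 1 (-0.80, adjusted p = 0.0560) or 2 (-0.62, adjusted p = 0.149) at 6 h, and without replicate 1 (-0.82, adjusted p = 0.0649) or 3 (-0.75, adjusted p = 0.0911) at 24 h.

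In the Srg superfamily, the srx family held a strong pair of rises. srx-130 had 4.15, 5.03 and 2.39 CPM at 72 h in irld, against 0.330, 0.231 and 0 CPM at 6 h, and 3.08, 4.497 and 3.75 CPM at 72 h in N2, against 0.170, 0.0870 and 0 CPM at 6 h. The levels did not overlap, as the rule for naming required, and the log2 difference was 4.34 ± 0.60 in irld (adjusted p = 2.07e-06) and 5.22 ± 0.66 in N2 (adjusted p = 3.86e-07). srx-130 turned on early, with means of 0.187, 0.452, 2.40, 3.15 and 3.86 CPM in irld and of 0.0855, 0.264, 2.23, 3.52 and 3.78 CPM in N2 over the 5 times, so most of the climb fell between 12 and 24 h. srx-128 had 2.46, 3.35 and 3.70 CPM at 72 h in irld, against 0.826, 0.308 and 0 CPM at 6 h, and 2.52, 3.04 and 2.58 CPM at 72 h in N2, against 0.848, 0.087 and 0.821 CPM at 6 h. Its groups were likewise apart (3.09 ± 0.73, adjusted p = 0.00113 in irld, and 2.35 ± 0.71, adjusted p = 0.00739 in N2).

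These genes are neighbours. srx-129 (V 13834251 to 13836655), srx-128 (V 13837473 to 13838708) and srx-130 (V 13843447 to 13844962) lie in that order on the plus strand, with 817 bases between the first pair and 4738 between srx-128 and srx-130. srx-129, the member nearest to srx-128, had differences of 1.03 in irld and 1.02 in N2 and was not called (adjusted p = 0.181 and 0.187). Elsewhere in the family, srx-114 was called in N2 (1.61 ± 0.57, adjusted p = 0.0211) with 0.61 ± 0.55 in irld. Without replicate 2 at 6 h or replicate 1 at 72 h, srx-114 stood at 1.53 and 1.24 in N2 (adjusted p = 0.0659 and 0.115). srx-38 was called in irld (0.99 ± 0.40, adjusted p = 0.0458), and any of 5 libraries ended that call when left out, with values of 0.77 without replicate 2 at 6 h (adjusted p = 0.162), 1.06 without replicate 1 at 6 h, and 1.08, 1.00 and 0.87 without replicates 1, 2 and 3 at 72 h. It was also lost without the filter on low counts (0.96, adjusted p = 0.1104) and with the groups compared alone (1.06, adjusted p = 0.05004).

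srv-4 was the member with the largest gain in absolute level. It had 27.9, 25.1 and 24.0 CPM at 72 h in irld, against 3.63, 2.54 and 0.475 CPM at 6 h, and 42.9, 21.3 and 21.1 CPM at 72 h in N2, against 5.00, 1.57 and 1.23 CPM at 6 h. Its mean climbed at every step, through 2.22, 5.14, 11.3, 23.02 and 25.7 CPM in irld and 2.60, 5.56, 11.1, 22.7 and 28.4 CPM in N2. The log2 difference was 3.55 ± 0.66 in irld (adjusted p = 0.000137) and 3.46 ± 0.65 in N2 (adjusted p = 0.000132).

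The other abundant srv gene moved in the opposite direction. srv-1 fell to 10.2, 9.22 and 10.4 CPM at 72 h in irld, against 20.6, 11.3 and 20.6 CPM at 6 h, and to 9.53, 10.7 and 8.21 CPM at 72 h in N2, against 18.4, 17.8 and 15.7 CPM at 6 h. The groups do not overlap in either strain, though 1 irld library at 6 h lay close to the 72 h values. The log2 difference was -0.81 ± 0.26 in irld (adjusted p = 0.0115) and -0.87 ± 0.26 in N2 (adjusted p = 0.00672), and the irld call ended without replicate 3 at 6 h (-0.64, adjusted p = 0.0685). srv-1 shares 103 exon bases with zak-1 on the opposite strand, which changed by -0.50 in irld and -0.38 in N2, and the part of shared reads in the srv-1 result was not tested. srv-4 thus stood at 25.7 CPM and srv-1 at 9.96 CPM in irld at 72 h, against 2.22 and 17.5 CPM at 6 h.

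**Figure D3:**
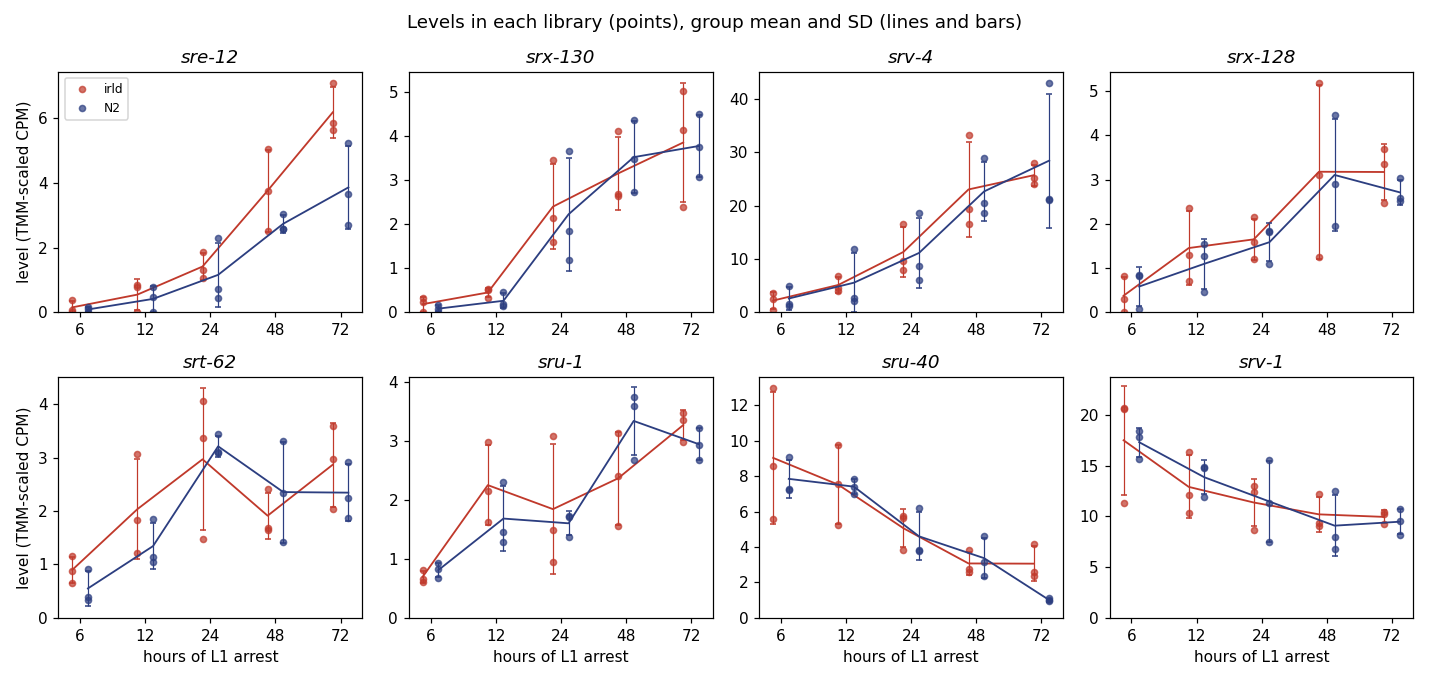
Each panel plots 1 member, with hours of L1 arrest on the horizontal axis and TMM-scaled CPM on the vertical axis. Points are the 3 libraries of a group, lines join group means, bars are SD, and irld is drawn in red to the left of N2 in blue. sre-12, srx-130, srv-4, srx-128, srt-62 and sru-1 are higher at 72 h than at 6 h in every library of both strains, and sru-40 and srv-1 are lower.

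The sru family held a fall and a rise in neighbouring genes. sru-40 (V 9832646 to 9834000) fell to 2.59, 4.19 and 2.39 CPM at 72 h in irld, against 12.96, 8.54 and 5.57 CPM at 6 h, and to 0.981, 1.09 and 0.938 CPM at 72 h in N2, against 9.07, 7.27 and 7.19 CPM at 6 h. All 72 h libraries were below all 6 h libraries, and the 3 N2 libraries at 72 h were below every other sru-40 value in the study. The log2 difference was -1.55 ± 0.31 in irld (adjusted p = 0.000227) and -2.95 ± 0.36 in N2 (adjusted p = 2.17e-07). sru-38 (V 9834463 to 9836045) lies 462 bases from sru-40 on the same minus strand and went up. It had 3.11, 2.63 and 2.63 CPM at 72 h in irld, against 1.24, 1.00 and 1.36 CPM at 6 h, and 4.07, 2.43 and 2.23 CPM at 72 h in N2, against 1.44, 1.00 and 1.54 CPM at 6 h. Its log2 difference was 1.21 ± 0.36 in irld (adjusted p = 0.00760) and 1.14 ± 0.36 in N2 (adjusted p = 0.00970), of which the N2 call ended without replicate 1 at 72 h (0.83, adjusted p = 0.0873). With library size alone, sru-38 was called in neither strain (0.74, adjusted p = 0.0608 in irld, and 0.61, adjusted p = 0.118 in N2), and with the spike-in it was at -0.08 in irld.

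sru-1 was the earliest member to be called. It had 2.98, 2.15 and 1.62 CPM at 12 h in irld, against 0.661, 0.616 and 0.815 CPM at 6 h (1.67 ± 0.37, adjusted p = 0.0106). That call ended without replicate 1 at 12 h (1.41, adjusted p = 0.0918) and with the groups compared alone (1.70, adjusted p = 0.224). In N2 it had 2.31, 1.28 and 1.46 CPM at 12 h, against 0.678, 0.827 and 0.924 CPM at 6 h, also without overlap, with an adjusted p of 0.0991. At 72 h sru-1 stood at 2.98, 3.35 and 3.47 CPM in irld and at 3.22, 2.67 and 2.93 CPM in N2, with log2 differences from 6 h of 2.20 ± 0.37 (adjusted p = 2.80e-05) and 1.85 ± 0.37 (adjusted p = 0.000167).

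In the srt family, srt-62 rose in both strains and had its highest mean at 24 h. It had 2.98, 3.59 and 2.03 CPM at 72 h in irld, against 0.661, 1.15 and 0.883 CPM at 6 h, and 2.24, 2.92 and 1.88 CPM at 72 h in N2, against 0.339, 0.392 and 0.924 CPM at 6 h. The groups were separate (1.66 ± 0.43, adjusted p = 0.00256 in irld, and 2.14 ± 0.46, adjusted p = 0.000401 in N2), and the means at 24 h were 2.97 CPM in irld and 3.21 CPM in N2. srt-41 had 0.908, 1.56 and 2.51 CPM at 72 h in irld, against 0.330, 0.0769 and 0.340 CPM at 6 h (2.68 ± 0.77, adjusted p = 0.00592). In N2 srt-41 changed by 1.85 ± 0.72 (adjusted p = 0.0337), a call that was lost without replicate 1 (1.65) or 2 (1.96) at 6 h or replicate 2 (1.82) or 3 (1.49) at 72 h, with adjusted p of 0.0664 to 0.136. Its neighbour srt-42, 4316 bases away on V, had -1.21 ± 0.61 in irld and -0.40 ± 0.58 in N2 and was not called (adjusted p = 0.111 and 0.591). On the opposite strand, srt-41 shares 170 exon bases with F36H9.10. srt-42 shares 26 with Y46H3A.4, which changed by -2.66 in irld and -0.84 in N2.

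srxa-6, the member of the srxa family, had 5.32, 6.11 and 4.06 CPM at 72 h in irld, against 1.65, 1.77 and 1.02 CPM at 6 h, and 7.85, 3.65 and 3.64 CPM at 72 h in N2, against 2.63, 1.87 and 1.44 CPM at 6 h. The groups did not overlap in either strain (1.80 ± 0.44, adjusted p = 0.00142 in irld, and 1.33 ± 0.43, adjusted p = 0.0109 in N2). Without replicate 1 at 72 h, which is the high one, the N2 difference was 0.87 (adjusted p = 0.123). The gene overlaps dnj-25 on the opposite strand, with 0 shared exon bases. None of the 4 srg members was called at 72 h, where the most abundant of them, srg-34, averaged 5.36 ± 0.96 CPM in irld, against 3.75 ± 0.87 CPM at 6 h, and 3.80 ± 1.37 CPM in N2, against 2.67 ± 1.36 CPM at 6 h (SD, n = 3).

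At 72 h, 29 members were called in neither strain. Against 6 h, 25 members were called at no single time in either strain. sre-1 is among these, although it was called over all times together. The matching shares of all tested genes are not given here. For 3 of the members not called, srx-45, srab-14 and srv-5, the 95% intervals of both strains at 72 h lay within 2-fold. srab-14 shares 490 exon bases with spi-1 on the opposite strand, which changed by -1.04 in irld and -1.22 in N2. srx-45 shares 70 with K01B6.3 (-0.14 and -0.29), and the part of shared reads was not tested. srx-45 averaged 8.32 ± 2.55 CPM at 72 h in irld, against 7.98 ± 1.24 CPM at 6 h, and 8.64 ± 2.27 CPM at 72 h in N2, against 8.06 ± 0.72 CPM at 6 h (SD, n = 3). Its interval at 72 h ran from -0.46 to 0.58 in irld and from -0.42 to 0.62 in N2. The median member had an interval of ± 0.93 in irld and ± 0.96 in N2 on the log2 scale.

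The rule on mean CPM bears on these counts, because a gene that is high at any time can pass it. Of the members, 24 had a group mean of at least 1 CPM at every time in both strains, and among these 8 rose and 1 fell in irld and likewise 8 rose and 1 fell in N2 at 72 h. Under 1 CPM at 6 h in both strains were 9 members (sre-12, srg-40, srt-41, srt-53, sru-1, sru-39, srx-128, srx-130 and srx-41), of which 5 rose in each strain. Under 1 CPM at 72 h in both strains were 4 members (sra-36, srb-16, sre-1 and srg-40), of which 0 rose and 1, srb-16, fell in N2. Among the 54 tested family genes below the threshold, 4 were called higher and 8 lower in irld and 6 higher and 7 lower in N2. Their median log2 difference was 0.07 in irld and -0.14 in N2, beside 0.52 and 0.55 for the members. These 54 genes were tested only because they passed the filter on low counts, which a gene can pass through the group where it is high. Their calls and median are therefore no separate test.

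Summed over the 50 members, the level over 6, 12, 24, 48 and 72 h averaged 118, 119.2, 144, 163 and 180 CPM in irld and 110, 110, 136, 165 and 177 CPM in N2. The 72 h libraries held 169 to 201 CPM in irld, against 100.6 to 144 CPM at 6 h, and 148 to 221 CPM in N2, against 105 to 116 CPM at 6 h, so the groups do not overlap in either strain under TMM scaling. As a share of library counts, without TMM, the groups overlap in both strains: the members took 0.0140%, 0.0172% and 0.0147% at 72 h in irld, against 0.0154%, 0.0124% and 0.0133% at 6 h, and 0.0172%, 0.0139% and 0.0125% at 72 h in N2, against 0.0137%, 0.0122% and 0.0135% at 6 h. Without sre-12, srx-130 and srv-4, the sum was 144 CPM at 72 h in irld, against 115.1 CPM at 6 h, and 141 CPM at 72 h in N2, against 107 CPM at 6 h, and the irld groups then overlapped (132 to 164 CPM at 72 h, against 97.5 to 139.7 CPM at 6 h). The family genes under the threshold summed to 103.5 CPM at 72 h in irld, against 77.0 CPM at 6 h, and to 93.1 CPM at 72 h in N2, against 77.0 CPM at 6 h. In that sum, 1 N2 library at 48 h stood apart, at 179 CPM where the lowest N2 library at 48 h had 58.8 CPM.

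**Figure D4:**
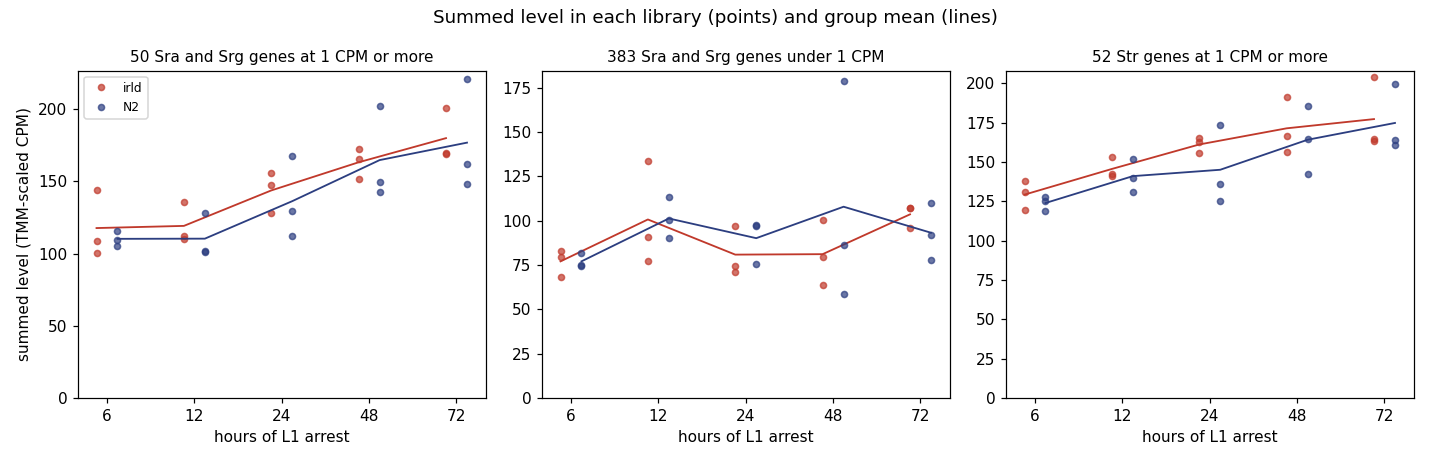
Panels show the summed TMM-scaled CPM of the 50 members, of the family genes under the threshold, and of 52 Str genes, by hours of L1 arrest. Points are libraries and lines join group means, with irld in red to the left of N2 in blue. Under this scaling the member sum at 72 h lies above that at 6 h in all libraries, with means of 180 against 118 CPM in irld and of 177 against 110 CPM in N2, while as shares of library counts the 72 h and 6 h libraries overlap in both strains.

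The Str superfamily is another large group of worm chemoreceptors. Of its 580 genes, 52 had a mean of at least 1 CPM. At 72 h against 6 h, 19 of them were called higher and 9 lower in irld, and 19 higher and 9 lower in N2, with medians of 0.83 and 0.65 beside 0.52 and 0.55 for the Sra and Srg members. No test of the difference between the superfamilies was made.

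Between the strains, no member differed past the threshold. For irld less N2 averaged over the 5 times, 0 members were called (0% of all tested genes were), 3 had an unadjusted p under 0.05 (5.4% of all tested genes had), and neither limma-voom nor DESeq2 called any. The median difference of the members was 0.05, beside 0.02 over all tested genes, and 47 of the 50 intervals at 95% lay within 2-fold. The members with the smallest p-values were srx-125 (0.51 ± 0.19), srg-48 (0.55 ± 0.21) and sru-40 (0.37 ± 0.14), whose unadjusted p were 0.0119, 0.0156 and 0.0161. Each had an adjusted p = 0.916 in edgeR's quasi-likelihood test. sra-37 and srab-14 followed, at 0.26 ± 0.13 and 0.24 ± 0.13 (adjusted p = 0.926 and 0.942).

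**Figure D5:**
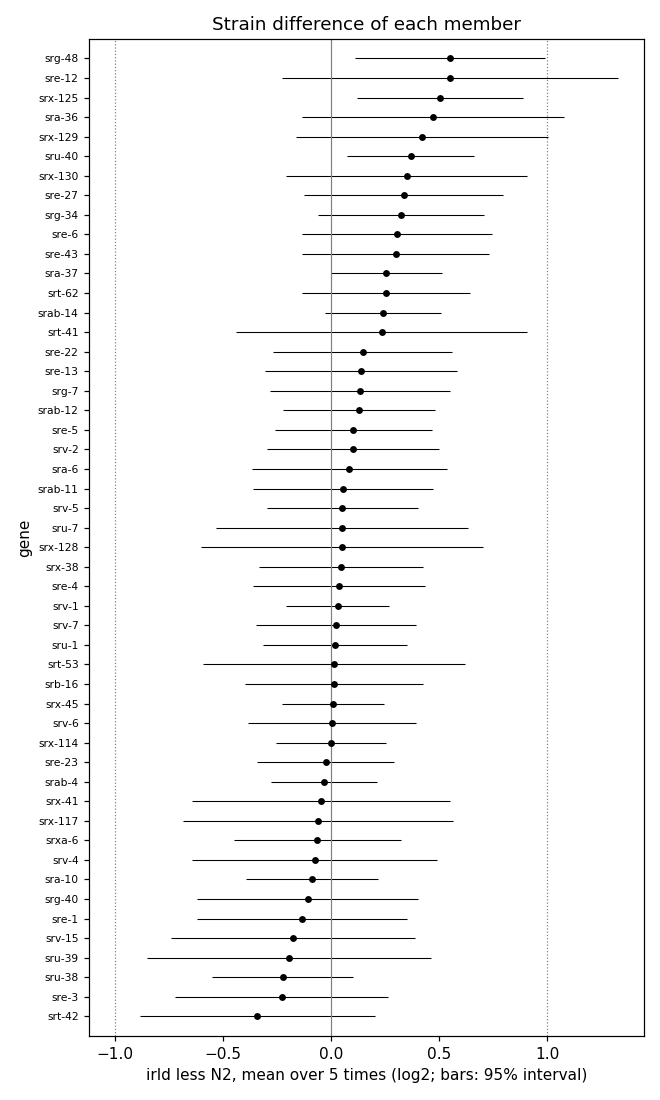
Each row is 1 member, ordered by the difference of irld less N2 averaged over the 5 times, on the log2 scale, with bars for the 95% interval and dotted lines at a 2-fold difference. The 3 intervals that leave 0 out on the side of higher levels in irld are those of srg-48, srx-125 and sru-40, none of which passed the adjusted threshold.

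Tests at single times, of the strain difference changing with time, and of the change at 72 h against 6 h also called 0 members by edgeR, DESeq2 and limma-voom. In these tests 0% of all tested genes were called. An unadjusted p under 0.05 was found for 2, 2, 1, 1 and 2 members at 6, 12, 24, 48 and 72 h, beside 1.1%, 1.48%, 2.22%, 2.75% and 2.88% of all tested genes. It was found for 1 member in the test of the strain difference changing with time (0.767% of all tested genes) and for 2 members in the change at 72 h against 6 h (1.95%). The member with the smallest unadjusted p at 72 h was sru-40, with 2.59, 4.19 and 2.39 CPM in irld against 0.981, 1.09 and 0.938 CPM in N2. Every irld library lay above every N2 library (1.60 ± 0.38, unadjusted p = 0.000259, adjusted p = 1.00). For sru-40 the fall at 72 h against 6 h was smaller in irld by 1.40 ± 0.47 (unadjusted p = 0.00683, adjusted p = 1.00). sre-27 had a smaller change in irld by 1.75 ± 0.72 (unadjusted p = 0.0221, adjusted p = 1.00), with higher levels in irld at 6 h (1.40, 0.846 and 0.747 CPM) than in N2 (0.339, 0.348 and 0.513 CPM). The authors' deposited table, a test of irld over N2 across the 5 times, holds all 50 members, of which 2 had p under 0.05 there (sru-40 with p = 0.0170 and srg-48 with p = 0.0404) and 0 had an FDR under 0.05.

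Genes of the chemosensory pathway were called in both directions at 72 h against 6 h. Of all tested genes, 20.6% were called higher and 26% lower in irld, and 23.1% higher and 27.9% lower in N2. Of 33 tested genes of signal transduction downstream of the receptors, 6 were higher and 5 lower at 72 h in irld, and 7 higher and 7 lower in N2, with medians of 0.04 and -0.12. gpa-8, a G protein alpha subunit, rose by 1.62 ± 0.26 in irld and 1.52 ± 0.26 in N2, and osm-9, a TRPV channel subunit, rose by 0.59 ± 0.20 and 0.86 ± 0.20. cng-1, which encodes a subunit of cyclic-nucleotide-gated channels, fell by 2.96 ± 0.73 in irld and 4.07 ± 0.80 in N2. Of 10 genes for receptor trafficking and expression, 4 were higher and 2 lower in each strain. Among the higher were rab-8 (2.04 ± 0.13 and 2.21 ± 0.13) and odr-8, which acts in receptor transport to cilia (0.43 ± 0.13 and 0.51 ± 0.13). The lower were tbx-2 (-1.07 ± 0.20 and -1.09 ± 0.20) and unc-101 (-0.49 ± 0.18 and -0.89 ± 0.18). Of 18 factors for sensory neuron identity, 2 were higher and 4 lower in irld, and 4 higher and 3 lower in N2.

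Markers of several cell types changed with time as well. At 72 h, 20.6% of all tested genes were called higher and 26% lower in irld, and 23.1% higher and 27.9% lower in N2. Of 47 genes of cilia and intraflagellar transport, 18 were higher and 2 lower at 72 h in irld, and 23 higher and 3 lower in N2, with medians of 0.45 and 0.59, and their sum ranged over 743 to 899 CPM at 72 h in irld, against 555 to 660 CPM at 6 h, and over 817 to 973 CPM at 72 h in N2, against 459 to 718 CPM at 6 h. Of 20 pan-neuronal genes, 8 were higher and 7 lower in each strain, with medians of -0.18 and -0.14. Their sum was 6348 to 6730 CPM at 72 h in irld, against 3082 to 3433 CPM at 6 h, and 6462 to 8256 CPM at 72 h in N2, against 3138 to 3498 CPM at 6 h. Of 14 hypodermal and seam genes, 0 were higher and 10 lower in irld, and 0 higher and 9 lower in N2, and the sum was 903 to 1001 CPM at 72 h in irld, against 1644 to 2236 CPM at 6 h, and 883 to 1226 CPM at 72 h in N2, against 2110 to 2516 CPM at 6 h. Of 12 pharyngeal genes, 1 was higher and 10 lower in irld, and 1 higher and 7 lower in N2. Of 7 tested amphid glia genes, 1 was higher and 3 lower in irld, and 1 higher and 2 lower in N2. The glia sum was 367 to 388 CPM at 72 h in irld, against 254 to 311 CPM at 6 h. In N2 the glia sum was 347 to 389 CPM at 72 h, against 282 to 330 CPM at 6 h. The part of these shifts in the receptor levels was not tested.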

How the data were processed

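Raw read counts per gene were deposited by the authors for 30 libraries, and each library's file held the same counts as its column in the table of the series. TRIzol was used to extract RNA, per the labels' protocols, and 50 ng of total RNA entered each NEBNext Ultra II library. Per the authors' text sheet and the submitters' processing notes, Bowtie 1.2.2 aligned the paired reads of 50 bp to WS273 with 92 ERCC sequences, with reads of more than 2 alignments dropped, and HTSeq 0.11.2 counted them. The HTSeq settings are not given in the sources used here, so use of strand is unknown, and near-identical receptor genes could share reads. For 18 members another annotated gene lies on the opposite strand. The authors' deposited table from edgeR 3.24.4 covers 14928 genes, with irld over N2 as log2 fold change at each time, log2 CPM, F as a score, p-value and FDR. The CPM values deposited by the authors were not used.

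All other values were computed from the counts. Of 46911 worm genes, 44053 were matched to a symbol, and positions are those of WBcel235 in Ensembl 115. edgeR 4.0.16 was run in R 4.3.3 with filterByExpr by group, which kept 15508 genes, TMM scaling, whose factors ran from 0.781 to 1.24, and quasi-likelihood F-tests (robust), modelling each of the 10 groups by its own coefficient without a block. The SE is the size of the log2 difference divided by the square root of F. The Benjamini-Hochberg adjustment ran over all tested genes, and the threshold was 0.05. Replicates are biological per the labels, and a chi-square test of counts between replicates gave 8.07 to 103.98 for each gene on average, far above sampling noise. 1 count was worth 0.0505 to 0.132 CPM, and intervals from counts cover counting error only. The steps were tested on simulated data, in which only genes with a mean of at least 2 CPM were changed. Of the members, 19 reach that level, so the simulation does not cover the lower ones. Alternatives used limma 3.58.1 and DESeq2 1.42.0, other scalings, filters, thresholds and left-out libraries.

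The members, lists and rules were chosen with earlier results of these data known. Named members are those with a known role, the 10 highest, the 10 largest called rises and falls at 72 h and the 5 largest at 24 h with no overlap between libraries, the 5 smallest p between strains, those nearest the threshold, and the highest of each family. Members called at 72 h outside that rule (srab-12, sre-6, srx-38), and the neighbour srx-129, were named after their values were seen. The list of known roles held 16 names, of which 14 were found in the table. The other 2, srb-64 and srb-66, were misnamed, since the known receptors srbc-64 and srbc-66 belong to another family. Promoter and protein sequences were not used here.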

Additional observations from a re-analysis of the deposited data

Results flagged for a closer look

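Both genes below were picked by a search over all members and times for libraries that separate in opposite directions between strains or times. Their separation was therefore fixed by the search and is no test. At 24 h, sre-1 had its means on opposite sides of its 6 h means in the strains. It had 1.31, 1.22 and 1.59 CPM at 24 h in irld, all above the 0.661, 1.08 and 0.475 CPM at 6 h, and 0.229, 0.914 and 0.689 CPM at 24 h in N2, all below the 1.44, 1.31 and 0.924 CPM at 6 h. The log2 differences were 0.89 ± 0.50 in irld and -0.97 ± 0.51 in N2, neither past the threshold, and the difference at 24 h itself was not tested. The strain difference changing over all times had an unadjusted p of 0.0575 for sre-1 and an adjusted p of 1.00 in edgeR's test.

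For srv-7, the order of the strains turned between times: the 3 irld libraries lay above the 3 N2 libraries at 6 h (0.59 ± 0.40) and below them at 48 h (-0.57 ± 0.40). Neither difference passed the threshold, and the difference between those times was not tested.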

How the results depend on the processing

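The counts of members called were within 1.5 times the values given, in every comparison, under upper quartile scaling, DESeq2's size factors, limma-voom and the replicate block, and the strain comparisons stayed at 0 in all alternatives run. The replicate block gave 1, 13, 14 and 16 members at 12, 24, 48 and 72 h and 17 over all times in irld, and 0, 15, 20 and 19 and 21 over all times in N2. Deviations from the group means gave a hint of pairing by number, from the data only, and the main fit used no block. Same-numbered libraries had correlations of -0.51 to 0.71 with a median of 0.18, and 90 of 135 pairs were over 0.1. Pairs of different number had a median of -0.11, and 65 of 270 were over 0.1. For 20 of 30 libraries, the mean correlation with libraries of other groups was highest for their own number. DESeq2 called 2 at 12 h in irld. Fits of the compared groups alone called 0 at 12 h and 5 at 24 h in irld and 7 at 24 h in N2. Without the filter on low counts, 7 were called at 24 h in N2. Library size alone gave 12 at 72 h in N2. In limma-voom, 11 were higher and 5 lower at 24 h in N2.

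Scaling to the ERCC spike-in gave 0, 0, 7 and 5 at 12, 24, 48 and 72 h and 3 over all times in irld, and 1, 4 and 4 at 24, 48 and 72 h and 6 over all times in N2. It turned srab-4 to -0.79, sre-23 to -0.79, sre-43 to -0.36, sru-38 to -0.082 and srx-38 to -0.58 at 72 h in irld. ERCC counts ranged from 34603 to 395572 between libraries, and the cause of the shift was not tested. For the 19 members of at least 2 CPM, fewer genes by construction, 6, 8 and 9 were called at 24, 48 and 72 h and 9 over all times in irld, and 7, 8 and 9 and 10 over all times in N2. For all tested genes of the families, 2, 22 and 28 were called at 12, 48 and 72 h and 28 over all times in irld, and 29 and 32 at 48 and 72 h and 34 over all times in N2.

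With 1 library or 1 replicate number left out, the counts at 12, 24, 48 and 72 h and over all times ranged over 0 to 2, 3 to 12, 9 to 12, 8 to 17 and 6 to 17 in irld, and over 0 to 1, 3 to 10, 7 to 19, 10 to 19 and 7 to 22 in N2. The cause of other shifts was not tested. The median member had 17 counts per library, and the median 95% interval at 72 h was ± 0.93 in irld and ± 0.96 in N2 on the log2 scale.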
